A study of Mus musculus with 30 samples.

Results

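The genes described here carry a cell from G1 into S phase and copy its DNA. The set held 49 named mouse genes: the factors that license replication origins, the replicative helicase and its activators, the sliding clamp and its loader, the polymerases, the enzymes that join strands and supply nucleotides, E2F transcription factors, the E cyclins and a few factors of chromatin assembly and the S phase checkpoint. They were found by symbol in the deposited count table, where all 49 were present among 39017 genes. All 49 also passed the filter on low counts, as did 15627 genes in all.

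Messenger RNA was sequenced from lines of βTC3, an insulin-producing cell line that came from a mouse islet tumour. The groups with activin B had received 50 ng/ml of this TGF-β family ligand for 24 hours beside 1 µg/ml doxycycline (DOX) for 24 hours, and their counterparts had DOX alone, so DOX was common to every group. Of the 5 lines, one carried an inducible ALK7, a type I activin receptor whose gene is Acvr1c, one a dominant-negative form of it (ALK7-DN), one a single hairpin against it (sh2), one a pair of hairpins (sh1/2), and one was the control. The first, the second and the control were built in plasmid PB-33 and both hairpin lines in PB-31. No PB-31 line without a hairpin was analysed here, so plasmid and hairpin cannot be told apart between these lines and the control. Each of the 10 groups had 3 libraries, plated as triplicate wells, so the p-values cover the spread among wells of a line, which may be technical. The labels name batch 2 for 6 libraries (ALK7-DN treated with activin B, and sh2 given only DOX) and batch 1 for the other 24, so batch and treatment cannot be told apart within these 2 lines.

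Before S phase, the origin recognition complex, CDC6 and CDT1 load the MCM helicase onto DNA, and geminin, the product of Gmnn, blocks a second loading. Cyclin D and cyclin E kinases then phosphorylate the RB family, which frees E2F factors to switch on many genes of this set, and CDC45 and the GINS complex turn the loaded helicase into the moving one. Activin and TGF-β are known to hold many epithelial cells in G1. Lines of the βTC family express the SV40 large T antigen, a viral protein known to bind the RB family.

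Library totals ran from 18904884 to 34740789 counts. Acvr1c, the targeted gene, stood with DOX alone at 55.3 ± 8.0 CPM (TMM-scaled counts relative to library size; SD, n = 3) in sh1/2, 68.5 ± 12.8 in sh2, 154.1 ± 11 in ALK7 and 161.2 ± 7.5 in ALK7-DN cells, against 165.0 ± 6.34 in control cells, so neither expression construct was visible in its counts. Beta cell markers were high (Ins2 4120 to 10900 and Iapp 2220 to 4840 CPM over the libraries), whereas Slc2a2 did not exceed 5.97 and Ucn3 0.393 CPM. Of 26 markers of stromal, endothelial, immune, exocrine and duct cells, 7 passed the filter, and Prss2 and Amy2a5 had 0 counts in every library. Their summed level was 40.7 to 68.1 CPM with activin B and 16.0 to 26.2 CPM with DOX alone, and came largely from Krt7 (10.3 to 64.4 CPM). The part of these markers in the results below was not tested. In 3 libraries, sh1/2 DOX replicates 1 and 3 and control activin B replicate 2, genes with a high GC content had fewer reads than in the others (Spearman correlation of the deviations with GC across genes -0.509, -0.551 and -0.585).

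The promoters of the 4 genes that were called lower with activin B in every line are shown, since E2F sites mark many genes of this set. Each window runs from 250 bases before to 50 bases after a start site given by RefSeq (GRCm38.p6, the build called mm10). Capitals mark a match to one of 4 E2F-type motifs searched on both strands, TTTGGCGC, TTTCGCGC, TTTCCCGC and TTTGCCGC, whose matches on opposite strands can overlap. The windows lie at chr8:85299382-85299681, plus strand, for Orc6; at chr11:98907901-98908200, plus strand, for Cdc6; at chr4:136172024-136172323, plus strand, for E2f2; and at chr7:38107441-38107740, minus strand, for Ccne1.
Orc6 promoter: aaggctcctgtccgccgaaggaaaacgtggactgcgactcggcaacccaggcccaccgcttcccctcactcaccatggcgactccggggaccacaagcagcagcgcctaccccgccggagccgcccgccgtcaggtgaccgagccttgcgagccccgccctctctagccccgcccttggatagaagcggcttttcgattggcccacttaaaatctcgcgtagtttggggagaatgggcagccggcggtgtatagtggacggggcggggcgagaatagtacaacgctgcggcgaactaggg
Cdc6 promoter: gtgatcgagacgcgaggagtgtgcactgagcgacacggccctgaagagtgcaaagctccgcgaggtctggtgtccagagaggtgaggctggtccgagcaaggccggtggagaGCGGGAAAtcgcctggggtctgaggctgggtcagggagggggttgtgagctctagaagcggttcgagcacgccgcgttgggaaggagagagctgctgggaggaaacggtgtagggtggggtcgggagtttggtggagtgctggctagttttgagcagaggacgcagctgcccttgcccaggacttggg
E2f2 promoter: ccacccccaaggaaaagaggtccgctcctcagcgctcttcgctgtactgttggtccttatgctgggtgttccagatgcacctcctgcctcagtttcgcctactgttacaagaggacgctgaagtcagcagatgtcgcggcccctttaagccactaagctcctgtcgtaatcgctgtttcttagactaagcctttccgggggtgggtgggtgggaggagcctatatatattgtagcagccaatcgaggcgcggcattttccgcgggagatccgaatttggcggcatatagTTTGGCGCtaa
Ccne1 promoter: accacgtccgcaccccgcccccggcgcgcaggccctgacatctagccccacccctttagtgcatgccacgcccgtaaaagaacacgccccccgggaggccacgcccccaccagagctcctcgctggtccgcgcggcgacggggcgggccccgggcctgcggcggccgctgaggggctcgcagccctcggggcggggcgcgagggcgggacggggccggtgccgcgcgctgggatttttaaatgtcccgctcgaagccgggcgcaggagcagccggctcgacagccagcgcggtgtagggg
In the Cdc6 window TTTCCCGC lies on the opposite strand with its leftmost base at position -138. In the E2f2 window TTTGGCGC lies at position 39, and both positions are counted from the RefSeq start site as 0. In GENCODE M21 the Cdc6 gene starts at 98907801, so all of its window, with the match, lies within the gene. The E2f2 window did not end inside a GENCODE M21 transcript of the gene, and the other 3 did. E2f2 had 2 windows, and the one shown was picked because it held the most motif matches. The other genes shown had 1 window each. The Orc6 and Ccne1 windows hold none of these exact letters. A window was given for 39 of the 49 genes, and 18 of the 39 (46.2%) held a match, against 704 of 27025 genes in the whole RefSeq table (2.60%). A match stood in 6 of 14 windowed genes that were lower with activin B over the 5 lines (42.9%) and in 12 of the 25 others (48.0%). The genes with no window were Mcm4, Gins1, Gins2, Gins4, Gmnn, Rfc2, Pole, Prim2, Ccne2 and Exo1.

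Levels differed widely between the members. Per kilobase of exon (RPKM), Pcna, the sliding clamp that holds polymerases on DNA, was highest with a mean of 261 over the 30 libraries (range 207 to 289). It was followed by the flap endonuclease gene Fen1 (139, range 96.3 to 166) and the helicase subunit gene Mcm5 (134, range 99.8 to 151). The lowest were E2f3 (6.52, range 5.73 to 8.22), the uracil glycosylase gene Ung (3.89, range 2.92 to 4.59) and the origin recognition subunit gene Orc1 (3.63, range 3.11 to 4.15). A processed pseudogene of Pcna, Pcna-ps2, held 3085 counts over all libraries, so some reads of Pcna may have been assigned elsewhere. In bulk RNA, fewer cells in a phase and less RNA per cell cannot be told apart, which holds for all values below.

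The summed level of the 49 genes was 8543 to 8555 CPM with activin B and 9153 to 9161 CPM with DOX alone in ALK7 cells. In ALK7-DN cells it was 8714 to 8913 CPM with activin B, against 9066 to 9178 CPM with DOX alone. In sh2 cells it was 9062 to 9208 CPM with activin B, against 9446 to 9549 CPM with DOX alone. These 3 lines had no overlap between the groups. The range in sh1/2 cells was 8458 to 8646 CPM with activin B and 8542 to 8676 CPM with DOX alone, and the groups overlapped. Control cells stood at 8227 to 8784 CPM with activin B, with the lowest value in replicate 2, and at 8994 to 9034 CPM with DOX alone, without overlap.

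**Figure D1:**
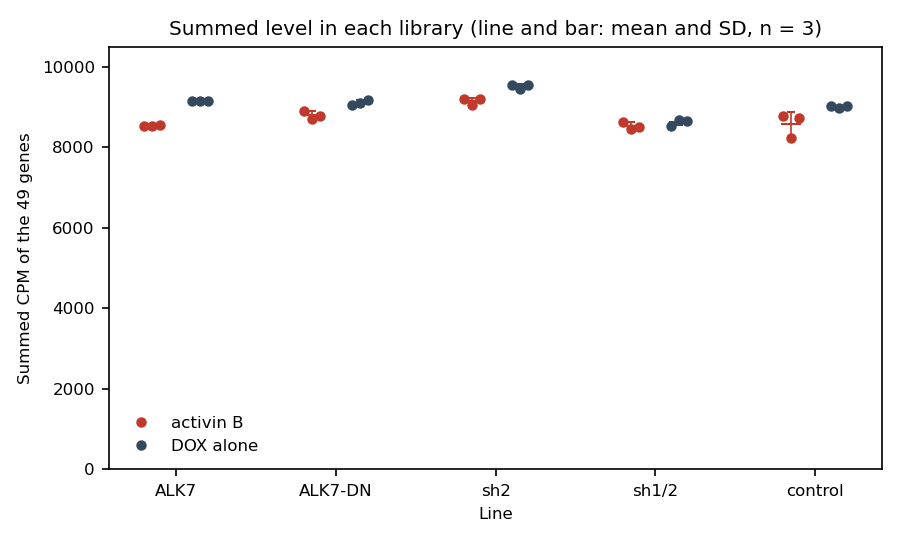
Summed level of the 49 genes in CPM for each library (points), with the mean and SD of 3 libraries (line and bar), by line and treatment. With activin B the points lie below those with DOX alone in ALK7, ALK7-DN, sh2 and control cells and overlap in sh1/2 cells.

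Averaged over the 5 lines, activin B lowered the transcripts of 16 of the 49 genes and raised 1. The genes that fell were Orc6, Ccne1, E2f2, Cdc6, Rrm2, Tyms, Slbp, Tk1, Pola1, Lig1, Mcm6, Mcm4, Dtl, Pcna, Gins2 and Fen1, and the gene that rose was Rrm1. The decreases were small, with log2 fold changes between -0.52 ± 0.03 (Orc6, SE) and -0.06 ± 0.02 (Mcm4). The test was edgeR's quasi-likelihood test on a model of 10 group means, at a Benjamini-Hochberg adjusted p under 0.05 over all genes tested, and every adjusted p below comes from it. Of the 49 genes 32.7% were called lower and 2.04% higher, against 22% and 21.5% of all genes tested (34.7% and 43.6% in either direction). The median log2 fold change was -0.04 over the 49 genes and -0.01 over all genes tested. For the 32 genes that were not called, the log2 fold changes lay between -0.08 ± 0.03 (Gmnn, adjusted p = 0.0756) and 0.04 ± 0.03 (E2f3, adjusted p = 0.228). In the mean of ALK7, sh1/2 and control cells, whose groups were all in batch 1, 15 genes were called.

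Line by line, the calls lower with activin B were 17 of 49 in ALK7 cells (34.7%, against 12.3% of all genes), 6 in ALK7-DN cells (12.2%, against 7.62%) and 7 in sh2 cells (14.3%, against 8.91%). They were 16 in sh1/2 cells (32.7%, against 19.1%) and 8 in control cells (16.3%, against 9.66%). None of the 49 was called higher in ALK7, ALK7-DN, sh2 or control cells, where 13%, 8.48%, 10.7% and 10.7% of all genes were, and 8 (16.3%, against 17.5%) were called higher in sh1/2 cells. In either direction the share of the 49 was 34.7% in ALK7, 12.2% in ALK7-DN, 14.3% in sh2, 49% in sh1/2 and 16.3% in control cells, against 25.3%, 16.1%, 19.6%, 36.6% and 20.3% of all genes in the same order of lines. Called lower in all 5 lines were Orc6, E2f2, Ccne1 and Cdc6. Tk1, Rrm2 and Tyms were called lower in 4 lines each, 5 further genes in 2, 12 in 1 and 25 in none. The shares of all genes tested called lower in these numbers of lines were not computed, so these counts have no background. The libraries of the groups did not overlap, lower with activin B, for 25 genes in ALK7 (21.5% of all genes), 12 in ALK7-DN (15.9%), 17 in sh2 (19.9%), 15 in sh1/2 (18.2%) and 15 in control cells (15.8%). Higher without overlap were 0, 0, 5, 5 and 2 genes in the same order of lines, where 22.4%, 16.5%, 18.3%, 18.0% and 16.4% of all genes were. Some of these counts rested on single libraries. In ALK7 cells 9 genes were called without DOX replicate 3 or without activin B replicate 2, and in ALK7-DN cells 3 without DOX replicate 2, DOX replicate 3 or activin B replicate 1. In control cells 5 were called without DOX replicate 1, 2 or 3 or activin B replicate 2. In sh2 cells 4 were called without the filter on low counts and 14 with the trend of counts with GC content removed. The Orc6, E2f2 and Ccne1 calls held in each line with any one of that line's libraries left out, and that of Cdc6 did so only in ALK7 cells.

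**Figure D2:**
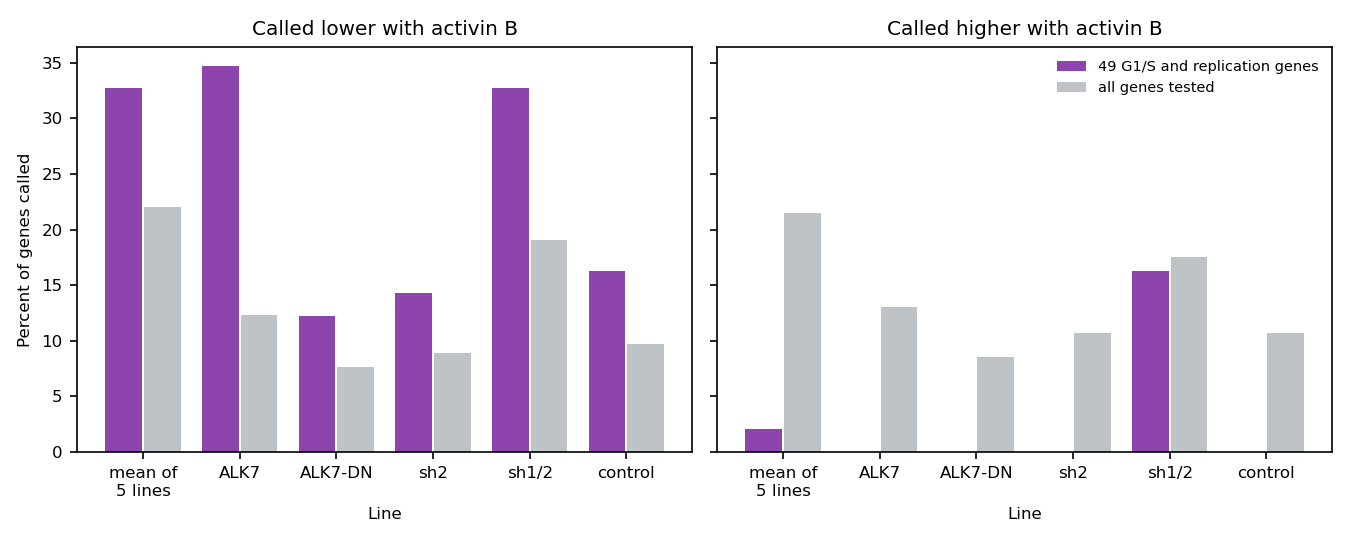
Percent of genes called lower (left) and higher (right) with activin B at an adjusted p under 0.05, for the 49 genes and for all genes tested, in the mean of the 5 lines and in each line. The share of the 49 lies above that of all genes in every pair of bars on the left and below it in every pair on the right, where it is 0 in ALK7, ALK7-DN, sh2 and control cells.

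**Figure D3:**
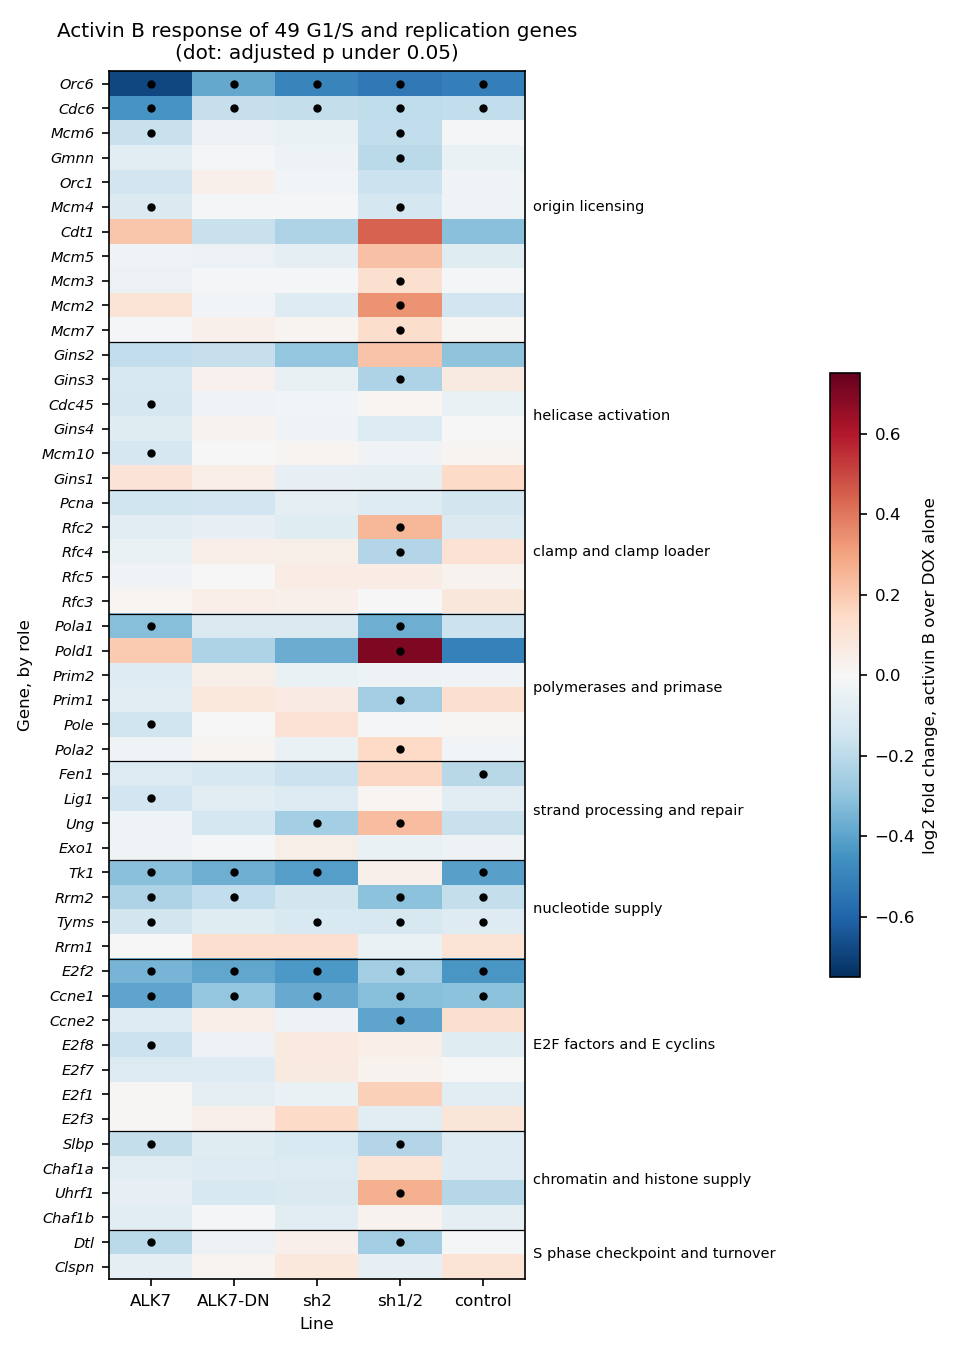
log2 fold change (activin B over DOX alone) of the 49 genes, grouped by role, in the 5 lines; a dot marks an adjusted p under 0.05. Orc6, Cdc6, E2f2 and Ccne1 are blue and dotted in all 5 columns, and the red, dotted cells are all in the sh1/2 column.

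Among the 11 genes of origin licensing, 4 fell over the 5 lines and none rose. Beside this and the counts by role below, 22% of all genes tested were called lower over the lines and 21.5% higher. Orc6 (chromosome 8, 85299632 to 85308278, plus strand, protein-coding) encodes the smallest subunit of the origin recognition complex and fell most of all 49 genes; library values here and below are in the order of replicates 1 to 3. In ALK7 cells Orc6 stood at 95.9, 100 and 95.2 CPM with activin B, against 149, 160 and 160 CPM with DOX alone. In ALK7-DN cells Orc6 stood at 115, 125 and 122 CPM with activin B, against 151, 160 and 161 CPM with DOX alone. In sh2 cells Orc6 stood at 113, 123 and 120 CPM with activin B, against 165, 167 and 170 CPM with DOX alone. The libraries with activin B were below all those with DOX alone in each of these lines. Orc6 stood at 128, 130 and 128 CPM in sh1/2 cells with activin B, against 194, 170 and 196 CPM in sh1/2 cells with DOX alone. In control cells Orc6 stood at 99.2, 118 and 109 CPM with activin B, against 147, 164 and 153 CPM with DOX alone. No overlap was seen here either, and sh1/2 DOX replicates 1 and 3 were the highest libraries of all. The log2 fold changes of Orc6 were -0.69 ± 0.06 in ALK7 cells (adjusted p = 1.7e-09), -0.38 ± 0.06 in ALK7-DN cells (adjusted p = 2.67e-05), -0.50 ± 0.06 in sh2 cells (adjusted p = 5.5e-07), -0.54 ± 0.06 in sh1/2 cells (adjusted p = 1.79e-07) and -0.51 ± 0.06 in control cells (adjusted p = 3.21e-07). Over the lines the decrease was -0.52 ± 0.03 (adjusted p = 1.47e-14).

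Cdc6 (chromosome 11, 98907801 to 98923940, plus strand) encodes the ATPase that recruits the MCM helicase to origins. In ALK7 cells Cdc6 stood at 91.8, 84.9 and 95.7 CPM with activin B, against 121, 123 and 127 CPM with DOX alone. In ALK7-DN cells Cdc6 stood at 98.2, 100 and 99.8 CPM with activin B, against 108, 111 and 117 CPM with DOX alone. In sh2 cells Cdc6 stood at 102, 99.9 and 106 CPM with activin B, against 118, 111 and 118 CPM with DOX alone. The gap between the groups was widest in ALK7 cells, and the groups did not overlap in these 3 lines. Cdc6 stood at 104, 86.8 and 95.3 CPM in sh1/2 cells with activin B, against 114, 101 and 111 CPM in sh1/2 cells with DOX alone. In control cells Cdc6 stood at 96.7, 93.5 and 94 CPM with activin B, against 102, 114 and 107 CPM with DOX alone. The groups overlapped in sh1/2 cells, through activin B replicate 1, and not in control cells. The log2 fold changes were -0.44 ± 0.06 in ALK7 cells (adjusted p = 2.51e-06), -0.17 ± 0.06 in ALK7-DN cells (adjusted p = 0.0497), -0.18 ± 0.06 in sh2 cells (adjusted p = 0.0366), -0.19 ± 0.06 in sh1/2 cells (adjusted p = 0.0177) and -0.18 ± 0.06 in control cells (adjusted p = 0.03). The mean decrease was -0.23 ± 0.03 (adjusted p = 7.21e-08). The ALK7-DN call ended without any one of its 6 libraries, the sh2 call without DOX replicate 1 or 3 or activin B replicate 1 or 2, the sh1/2 call without DOX replicate 1 or 3 or activin B replicate 2, and the control call without DOX replicate 2 or 3 or activin B replicate 2 or 3.

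Mcm6 (chromosome 1, 128331590 to 128359664, minus strand) and Mcm4 (chromosome 16, 15623897 to 15637400, minus strand) encode subunits of the ring-shaped helicase. In ALK7 cells Mcm6 stood at 415, 401 and 428 CPM with activin B, against 469, 457 and 472 CPM with DOX alone. Mcm6 stood at 394, 367 and 369 CPM in sh1/2 cells with activin B, against 448, 387 and 448 CPM in sh1/2 cells with DOX alone. Only in ALK7 cells did the groups of Mcm6 not overlap. In ALK7-DN cells Mcm6 stood at 416, 427 and 448 CPM with activin B, against 425, 453 and 452 CPM with DOX alone. In sh2 cells Mcm6 stood at 444, 445 and 441 CPM with activin B, against 461, 444 and 469 CPM with DOX alone. In control cells Mcm6 stood at 430, 460 and 438 CPM with activin B, against 428, 465 and 444 CPM with DOX alone. In each of these 3 lines the groups overlapped. Mcm6 passed the test in ALK7 (-0.17 ± 0.05, adjusted p = 0.0159) and sh1/2 cells (-0.18 ± 0.05, adjusted p = 0.00823), the first not without ALK7 DOX replicate 3 or activin B replicate 2 and the second not without sh1/2 DOX replicate 1 or 3. In ALK7 cells Mcm4 stood at 408, 394 and 400 CPM with activin B, against 439, 427 and 427 CPM with DOX alone. Mcm4 stood at 417, 404 and 397 CPM in sh1/2 cells with activin B, against 456, 417 and 462 CPM in sh1/2 cells with DOX alone. Mcm4 was lower with activin B in both lines without overlap (in sh1/2 cells the nearest libraries of the groups differed by less than the rounding), with log2 fold changes of -0.11 ± 0.04 and -0.13 ± 0.04 (adjusted p = 0.0345 and 0.00749). The ALK7 call ended without DOX replicate 1, 2 or 3 or activin B replicate 2 or 3, and the sh1/2 call without DOX replicate 3. In ALK7-DN cells Mcm4 stood at 413, 410 and 410 CPM with activin B, against 406, 415 and 420 CPM with DOX alone. In sh2 cells Mcm4 stood at 427, 430 and 427 CPM with activin B, against 429, 426 and 436 CPM with DOX alone. In control cells Mcm4 stood at 426, 428 and 409 CPM with activin B, against 434, 427 and 432 CPM with DOX alone. These groups overlapped, and the differences were -0.01 ± 0.04, -0.01 ± 0.04 and -0.03 ± 0.04. Over the 5 lines the log2 fold changes were -0.09 ± 0.02 for Mcm6 (adjusted p = 0.00202) and -0.06 ± 0.02 for Mcm4 (adjusted p = 0.00542). The Mcm4 call ended when the trend of counts with GC content was removed (-0.03, adjusted p = 0.272). The other 7 licensing genes were Mcm2, Mcm3, Mcm5, Mcm7, Cdt1, Gmnn and Orc1, with log2 fold changes over the lines between -0.08 ± 0.03 (Gmnn) and 0.04 ± 0.02 (Mcm7), none of them called. Mcm5 and Orc1, named for their levels, had -0.00 ± 0.04 (adjusted p = 0.98) and -0.06 ± 0.03 (adjusted p = 0.0976).

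Of the 6 genes of helicase activation, 1 fell over the lines and 5 were not called. Gins2, a subunit of the GINS complex, had -0.15 ± 0.05 (adjusted p = 0.0168), a call that ended in the mean of the 3 lines with both groups in batch 1. It was called in no single line, with -0.18 ± 0.11 in ALK7, -0.17 ± 0.11 in ALK7-DN, -0.29 ± 0.11 in sh2, 0.21 ± 0.11 in sh1/2 and -0.30 ± 0.11 in control cells. In ALK7 cells the helicase cofactor Cdc45 (-0.13 ± 0.04, adjusted p = 0.0321) and Mcm10, needed to start unwinding (-0.13 ± 0.04, adjusted p = 0.0402) passed the test; the first call ended without ALK7 DOX replicate 1 or 2 or any activin B replicate, and the second without DOX replicate 3 or any activin B replicate, or with a replicate block (-0.125, adjusted p = 0.0526). Among the 5 genes of the clamp and its loader, Pcna had -0.12 ± 0.03 over the lines (adjusted p = 0.00601), not called with the GC trend removed, and was called in no single line, with -0.15 ± 0.08 in ALK7, -0.14 ± 0.08 in ALK7-DN, -0.07 ± 0.08 in sh2, -0.10 ± 0.08 in sh1/2 and -0.14 ± 0.08 in control cells. The 4 loader genes Rfc2, Rfc3, Rfc4 and Rfc5 lay between -0.02 ± 0.04 (Rfc2) and 0.04 ± 0.02 (Rfc3).

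Of the 6 polymerase and primase genes, 1 fell over the lines. Pola1 (chromosome X, 93304767 to 93632155, minus strand) encodes the catalytic subunit of the polymerase that starts each new strand. In ALK7 cells Pola1 stood at 215, 208 and 232 CPM with activin B, against 281, 250 and 287 CPM with DOX alone. In ALK7-DN cells Pola1 stood at 229, 227 and 254 CPM with activin B, against 248, 250 and 267 CPM with DOX alone. In sh2 cells Pola1 stood at 221, 223 and 238 CPM with activin B, against 216, 238 and 281 CPM with DOX alone. In ALK7 cells the groups did not overlap, and in the other 2 lines they did. Pola1 stood at 164, 155 and 160 CPM in sh1/2 cells with activin B, against 209, 173 and 236 CPM in sh1/2 cells with DOX alone. In control cells Pola1 stood at 227, 267 and 246 CPM with activin B, against 268, 271 and 289 CPM with DOX alone. No overlap was found in sh1/2 and control cells, although the nearest libraries of the groups lay close together in control cells. The test was passed in ALK7 cells (-0.32 ± 0.09, adjusted p = 0.0113; not without DOX replicate 3 or activin B replicate 2) and sh1/2 cells (-0.37 ± 0.09, adjusted p = 0.00419; not without DOX replicate 3). Over the 5 lines the log2 fold change was -0.21 ± 0.04 (adjusted p = 0.000137). Pole, the catalytic subunit of the leading-strand polymerase, was called only in ALK7 cells (-0.15 ± 0.05, adjusted p = 0.0237), and that call ended without DOX replicate 1 or 3 or activin B replicate 2. Prim1, Prim2, Pola2 and Pold1 lay between -0.04 ± 0.11 (Pold1) and 0.02 ± 0.02 (Pola2) over the lines.

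Among the 4 genes of strand processing and repair, Lig1 and Fen1 fell over the lines. Lig1 (chromosome 7, 13277283 to 13311433, plus strand) encodes the ligase that seals Okazaki fragments. In ALK7 cells Lig1 stood at 221, 214 and 222 CPM with activin B, against 246, 238 and 240 CPM with DOX alone. In ALK7-DN cells Lig1 stood at 242, 233 and 237 CPM with activin B, against 254, 249 and 248 CPM with DOX alone. In sh2 cells Lig1 stood at 255, 248 and 257 CPM with activin B, against 275, 273 and 270 CPM with DOX alone. Every library with activin B lay below those with DOX alone in these lines. Lig1 stood at 242, 228 and 239 CPM in sh1/2 cells with activin B, against 226, 241 and 234 CPM in sh1/2 cells with DOX alone. In control cells Lig1 stood at 246, 228 and 250 CPM with activin B, against 257, 252 and 259 CPM with DOX alone. The groups overlapped in sh1/2 and not in control cells. Lig1 was called only in ALK7 cells (-0.14 ± 0.04, adjusted p = 0.00631), with 0.02 ± 0.04 in sh1/2 cells, and over the lines it had -0.08 ± 0.02 (adjusted p = 0.000418). Fen1, which trims the flaps of Okazaki fragments, had -0.09 ± 0.03 over the lines (adjusted p = 0.0364), a call that ended without any one of 11 of the 30 libraries and in the mean of the 3 lines with both groups in batch 1. In control cells it passed at -0.21 ± 0.07 (adjusted p = 0.0486; not without DOX replicate 1 or 3 or activin B replicate 2). Ung, which removes uracil from DNA, had -0.07 ± 0.04 over the lines (adjusted p = 0.133) and was called lower in sh2 (-0.26 ± 0.08, adjusted p = 0.0298), a call that held only without sh2 DOX replicate 3 among the libraries left out in turn.

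Of the 4 genes of nucleotide supply, 3 fell and 1 rose over the lines. Rrm2 (chromosome 12, 24708241 to 24714146, plus strand) encodes the small subunit of ribonucleotide reductase, which makes deoxynucleotides. In ALK7 cells Rrm2 stood at 148, 148 and 148 CPM with activin B, against 173, 173 and 173 CPM with DOX alone. In ALK7-DN cells Rrm2 stood at 134, 148 and 149 CPM with activin B, against 157, 168 and 164 CPM with DOX alone. In sh2 cells Rrm2 stood at 158, 144 and 145 CPM with activin B, against 172, 159 and 160 CPM with DOX alone. Libraries with activin B were the lower ones in all 3 lines. Rrm2 stood at 169, 164 and 165 CPM in sh1/2 cells with activin B, against 219, 186 and 210 CPM in sh1/2 cells with DOX alone. In control cells Rrm2 stood at 142, 151 and 137 CPM with activin B, against 161, 168 and 159 CPM with DOX alone. The groups did not overlap in any line, and sh1/2 cells with DOX alone had the highest values. Rrm2 had -0.23 ± 0.05 in ALK7 cells (adjusted p = 0.00222), -0.18 ± 0.05 in ALK7-DN cells (adjusted p = 0.0208), -0.14 ± 0.05 in sh2 cells (adjusted p = 0.0864), -0.30 ± 0.05 in sh1/2 cells (adjusted p = 0.000156) and -0.18 ± 0.05 in control cells (adjusted p = 0.0199). The mean was -0.21 ± 0.02 (adjusted p = 1.16e-07). The ALK7-DN call ended without DOX replicate 2 or 3 or activin B replicate 1, and the control call without DOX replicate 1 or 2 or activin B replicate 1 or 3.

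Tyms (chromosome 5, 30058202 to 30073617, minus strand), thymidylate synthase, makes thymidylate from its uracil precursor. In ALK7 cells Tyms stood at 199, 197 and 201 CPM with activin B, against 215, 219 and 222 CPM with DOX alone. In ALK7-DN cells Tyms stood at 204, 210 and 209 CPM with activin B, against 218, 224 and 221 CPM with DOX alone. In sh2 cells Tyms stood at 207, 214 and 209 CPM with activin B, against 227, 227 and 227 CPM with DOX alone. The libraries lay close together within each group and did not overlap between groups. Tyms stood at 179, 186 and 179 CPM in sh1/2 cells with activin B, against 193, 195 and 204 CPM in sh1/2 cells with DOX alone. In control cells Tyms stood at 194, 204 and 200 CPM with activin B, against 210, 217 and 211 CPM with DOX alone. Again no group overlapped its counterpart. The differences were -0.13 ± 0.03 in ALK7 cells (adjusted p = 0.0031), -0.09 ± 0.03 in ALK7-DN cells (adjusted p = 0.0705), -0.11 ± 0.03 in sh2 cells (adjusted p = 0.0162), -0.12 ± 0.03 in sh1/2 cells (adjusted p = 0.0072) and -0.10 ± 0.03 in control cells (adjusted p = 0.0412). The mean decrease was -0.11 ± 0.01 (adjusted p = 8.4e-07). The sh2 call ended without DOX replicate 2 or activin B replicate 1 or 3, the sh1/2 call without DOX replicate 3, and the control call without any one of its libraries but activin B replicate 2.

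Tk1 (chromosome 11, 117815526 to 117826092, minus strand) encodes the thymidine kinase of proliferating cells. In ALK7 cells Tk1 stood at 74.1, 80.8 and 74.8 CPM with activin B, against 86.7, 106 and 93.3 CPM with DOX alone. In ALK7-DN cells Tk1 stood at 69.7, 86 and 76.9 CPM with activin B, against 94.2, 104 and 102 CPM with DOX alone. In sh2 cells Tk1 stood at 77.4, 83.3 and 82.2 CPM with activin B, against 107, 114 and 103 CPM with DOX alone. These groups were apart in all 3 lines. Tk1 stood at 74.8, 85.2 and 83.6 CPM in sh1/2 cells with activin B, against 67.2, 101 and 68.6 CPM in sh1/2 cells with DOX alone. In control cells Tk1 stood at 77.2, 67.3 and 80.4 CPM with activin B, against 98.6, 102 and 98.4 CPM with DOX alone. In sh1/2 cells the groups overlapped, with DOX replicates 1 and 3 below and replicate 2 above all libraries with activin B. Replicates 1 and 3 were the libraries low in GC-rich genes, and 54.6% of the bases of the Tk1 transcripts were G or C. Whether GC content had a part in the Tk1 values of this line was not tested. Tk1 had -0.32 ± 0.11 in ALK7 cells (adjusted p = 0.0393), -0.37 ± 0.11 in ALK7-DN cells (adjusted p = 0.0238), -0.41 ± 0.11 in sh2 cells (adjusted p = 0.00937), 0.04 ± 0.11 in sh1/2 cells (adjusted p = 0.817) and -0.41 ± 0.11 in control cells (adjusted p = 0.00974). The mean was -0.29 ± 0.05 (adjusted p = 2.76e-05). The ALK7 call ended without DOX replicate 2 or 3 or activin B replicate 1 or 3, the ALK7-DN call without DOX replicate 2 or 3 or activin B replicate 1 or 3, and the control call without activin B replicate 2. Rrm1, the large subunit of ribonucleotide reductase, was the gene called higher over the lines, at 0.06 ± 0.02 (adjusted p = 0.0438). It was called in no single line, with 0.00 ± 0.05 in ALK7, 0.12 ± 0.05 in ALK7-DN, 0.13 ± 0.05 in sh2, -0.05 ± 0.05 in sh1/2 and 0.11 ± 0.05 in control cells, and its mean call ended without any one of 19 of the 30 libraries and in the mean of the 3 lines with both groups in batch 1.

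Of the 7 E2F and cyclin E genes, 2 fell over the lines. Ccne1 (chromosome 7, 38097984 to 38107534, minus strand) encodes cyclin E1, the partner of CDK2 at the G1/S boundary. In ALK7 cells Ccne1 stood at 84.9, 79.2 and 81 CPM with activin B, against 111, 108 and 104 CPM with DOX alone. In ALK7-DN cells Ccne1 stood at 91.2, 91.8 and 92.6 CPM with activin B, against 111, 111 and 115 CPM with DOX alone. In sh2 cells Ccne1 stood at 98.5, 88.2 and 88.6 CPM with activin B, against 127, 120 and 110 CPM with DOX alone. Each library with activin B was below each with DOX alone. Ccne1 stood at 96.8, 93.2 and 87.3 CPM in sh1/2 cells with activin B, against 116, 117 and 112 CPM in sh1/2 cells with DOX alone. In control cells Ccne1 stood at 95.7, 90.3 and 86.6 CPM with activin B, against 110, 115 and 112 CPM with DOX alone. The separation was the same in these 2 lines. Ccne1 had -0.40 ± 0.05 in ALK7 cells (adjusted p = 2.57e-06), -0.29 ± 0.05 in ALK7-DN cells (adjusted p = 0.000248), -0.38 ± 0.05 in sh2 cells (adjusted p = 7.75e-06), -0.32 ± 0.05 in sh1/2 cells (adjusted p = 7.92e-05) and -0.31 ± 0.05 in control cells (adjusted p = 0.000101). Over the lines it was -0.34 ± 0.02 (adjusted p = 1.12e-11). Its paralogue Ccne2 had -0.07 ± 0.05 over the lines (adjusted p = 0.29), with -0.10 ± 0.12 in ALK7, 0.05 ± 0.12 in ALK7-DN, -0.04 ± 0.12 in sh2, -0.40 ± 0.12 in sh1/2 and 0.12 ± 0.12 in control cells, and passed the test in sh1/2 cells (adjusted p = 0.0129; not without DOX replicate 1 or 3).

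E2f2 (chromosome 4, 136172394 to 136196057, plus strand) encodes one of the activating E2F factors. In ALK7 cells E2f2 stood at 53.2, 44.9 and 48 CPM with activin B, against 66.4, 59.9 and 60 CPM with DOX alone. In ALK7-DN cells E2f2 stood at 54.6, 51.6 and 52 CPM with activin B, against 73.4, 67.9 and 66.1 CPM with DOX alone. In sh2 cells E2f2 stood at 49.9, 45.1 and 49.9 CPM with activin B, against 66.6, 64.1 and 64.6 CPM with DOX alone. No library with activin B reached the level of one with DOX alone. E2f2 stood at 69.6, 63.2 and 66.6 CPM in sh1/2 cells with activin B, against 77.7, 81.6 and 79.8 CPM in sh1/2 cells with DOX alone. In control cells E2f2 stood at 55.1, 46.6 and 52.1 CPM with activin B, against 72.2, 65.7 and 70.5 CPM with DOX alone. The same held here, and sh1/2 cells were above the other lines in both treatments. E2f2 had -0.35 ± 0.07 in ALK7 cells (adjusted p = 0.00025), -0.39 ± 0.07 in ALK7-DN cells (adjusted p = 0.000104), -0.43 ± 0.07 in sh2 cells (adjusted p = 2.89e-05), -0.26 ± 0.07 in sh1/2 cells (adjusted p = 0.00427) and -0.44 ± 0.07 in control cells (adjusted p = 2.21e-05). The mean decrease was -0.37 ± 0.03 (adjusted p = 1.25e-10). The other activating factors were not called over the lines, with -0.00 ± 0.04 for E2f1 and 0.04 ± 0.03 for E2f3, nor were the repressors E2f7 (-0.02 ± 0.02) and E2f8 (-0.03 ± 0.02). E2f8 was called in ALK7 cells at -0.16 ± 0.05 (adjusted p = 0.029; not without DOX replicate 2 or 3 or activin B replicate 1 or 2).

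**Figure D4:**
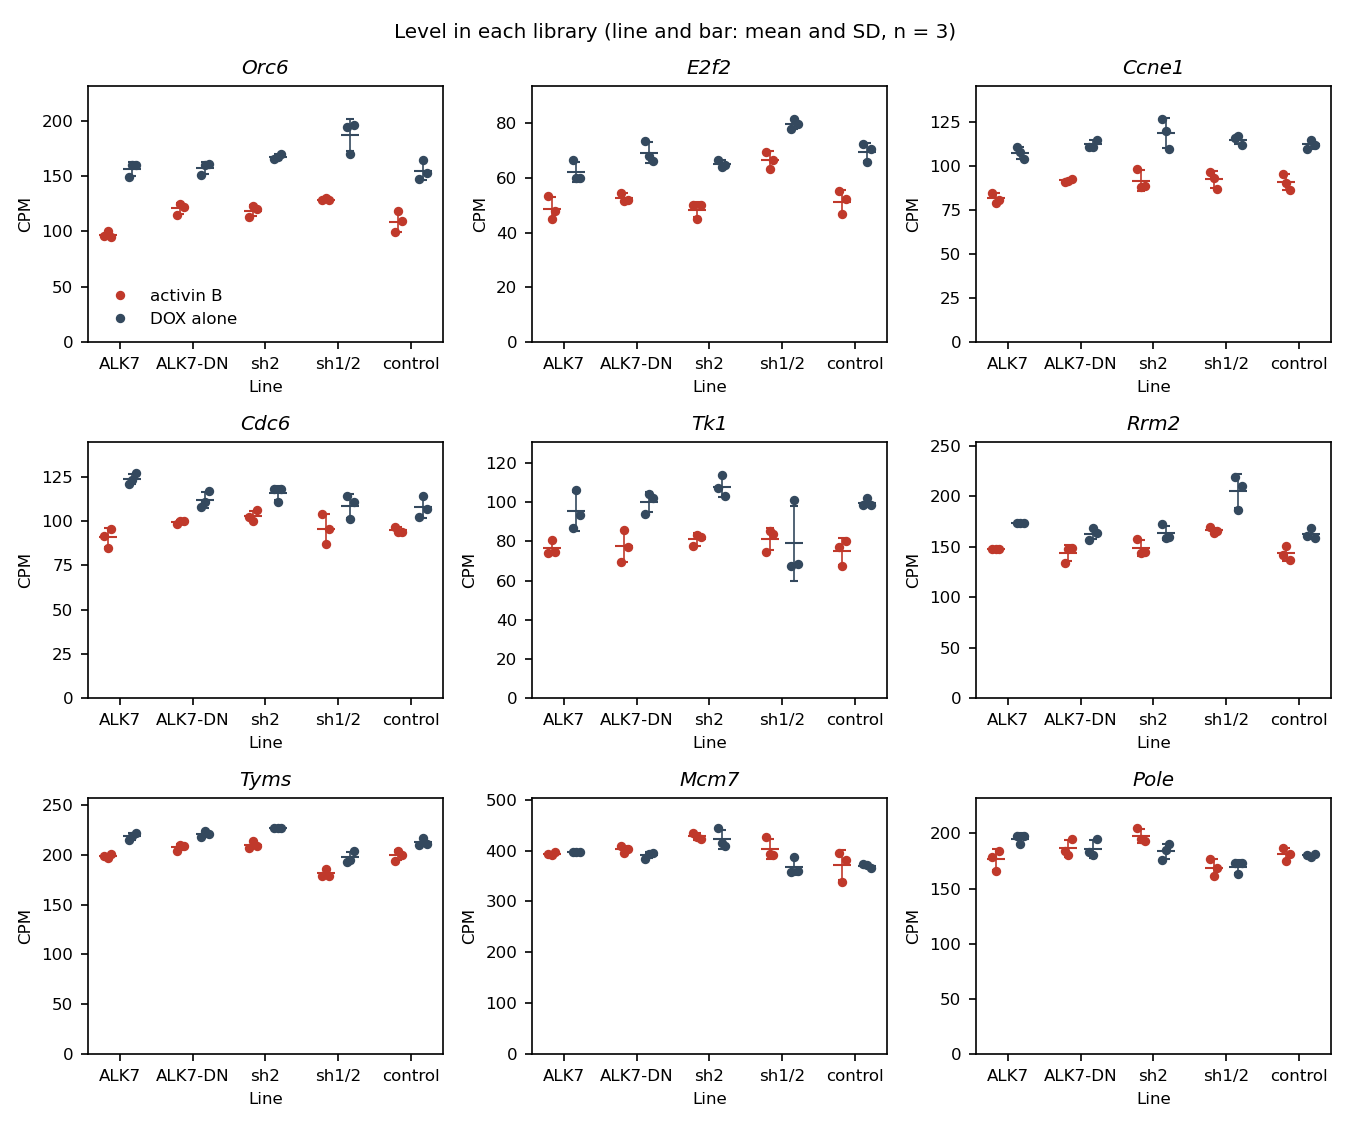
CPM of 9 genes in each library (points), with the mean and SD of 3 libraries, by line and treatment. Orc6, E2f2 and Ccne1 are lower with activin B in every line without overlap, Tk1 overlaps in sh1/2 cells, and Mcm7 and Pole are shown as genes that were not called over the lines.

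Among the 4 genes of chromatin and histone supply, Slbp fell over the lines. Slbp (chromosome 5, 33634952 to 33652574, minus strand) encodes the protein that binds the stem-loop of histone mRNAs. In ALK7 cells Slbp stood at 118, 118 and 117 CPM with activin B, against 128, 140 and 131 CPM with DOX alone. In ALK7-DN cells Slbp stood at 121, 121 and 117 CPM with activin B, against 129, 127 and 128 CPM with DOX alone. In sh2 cells Slbp stood at 123, 127 and 124 CPM with activin B, against 138, 131 and 136 CPM with DOX alone. In each line the libraries with activin B were the lower ones. Slbp stood at 130, 130 and 129 CPM in sh1/2 cells with activin B, against 159, 142 and 152 CPM in sh1/2 cells with DOX alone. In control cells Slbp stood at 117, 125 and 114 CPM with activin B, against 121, 135 and 125 CPM with DOX alone. Control cells were the line where the groups overlapped. Slbp was called in ALK7 cells (-0.18 ± 0.05, adjusted p = 0.00519) and sh1/2 cells (-0.22 ± 0.05, adjusted p = 0.000862), and over the lines it had -0.14 ± 0.02 (adjusted p = 3.5e-06). The chromatin assembly subunits Chaf1a and Chaf1b and the maintenance methylation factor Uhrf1 were not called over the lines, between -0.06 ± 0.03 (Chaf1a) and -0.04 ± 0.02 (Chaf1b). Of the 2 remaining genes, Dtl, which targets CDT1 for destruction in S phase, had -0.09 ± 0.03 over the lines (adjusted p = 0.0057). It passed in ALK7 (-0.20 ± 0.06, adjusted p = 0.0143; not without DOX replicate 3 or activin B replicate 2) and in sh1/2 cells (-0.26 ± 0.06, adjusted p = 0.00237). The checkpoint adaptor Clspn had 0.01 ± 0.03 (adjusted p = 0.757).

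The sh1/2 line was the one with calls in both directions. Higher with activin B were Mcm2 (0.34 ± 0.10, adjusted p = 0.0145), the loader subunit Rfc2 (0.25 ± 0.09), Uhrf1 (0.27 ± 0.09), Ung (0.23 ± 0.08), the lagging-strand polymerase subunit Pold1 (0.70 ± 0.25, adjusted p = 0.0337), Mcm7 (0.13 ± 0.05), the polymerase alpha subunit Pola2 (0.15 ± 0.06) and Mcm3 (0.12 ± 0.05, adjusted p = 0.0488). Library values of Mcm2 and Pold1 are given as examples chosen after they were seen. Mcm2 stood at 445, 463 and 436 CPM in sh1/2 cells with activin B, against 328, 421 and 316 CPM in sh1/2 cells with DOX alone. Pold1 stood at 62.6, 81.2 and 75.5 CPM in sh1/2 cells with activin B, against 34.5, 69 and 30.7 CPM in sh1/2 cells with DOX alone. For both genes the values with DOX alone were lower in replicates 1 and 3 than in replicate 2, and for Mcm2 replicate 2 lay close to the libraries with activin B. For Pold1, DOX replicate 2 (69 CPM) lay above activin B replicate 1 (62.6 CPM), so its groups overlapped. Those of Uhrf1, Ung, Pola2 and Mcm3 overlapped as well, and those of Mcm2, Rfc2 and Mcm7 did not. The 8 genes called higher had a transcript GC content of 51.3 to 60.6% (median 53.4%). The 16 genes called lower had 37.5 to 56.5% (median 47.1%), so the ranges overlapped. Across the 49 genes the log2 fold change of this line and GC content had a Spearman correlation of 0.729, against -0.482 in control cells. It was 0.294 in ALK7, -0.445 in ALK7-DN and -0.434 in sh2 cells. Over all genes tested with a GC value, the correlation was 0.611 in sh1/2 and -0.238 in control cells. For these genes it was 0.269 in ALK7, -0.172 in ALK7-DN and -0.197 in sh2 cells. Each value is a description over genes that share the same 6 libraries. Called lower in no line but sh1/2 were also Prim1 (-0.26 ± 0.09), Gins3 (-0.23 ± 0.08), Gmnn (-0.20 ± 0.08) and Rfc4 (-0.22 ± 0.09). In place of 24 genes, 9 were called without DOX replicate 1, 6 without DOX replicate 3, 13 without activin B replicate 2 and 15 without activin B replicate 3. Without the 3 libraries low in GC-rich genes 3 were called, which were Orc6, Ccne1 and E2f2, but this left 1 sh1/2 library with DOX alone, assumed to vary like the other groups. With only the sh1/2 groups fitted 2 were called, Orc6 and Ccne1. With the GC trend removed 14 were called, 2 higher and 12 lower.

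**Figure D5:**
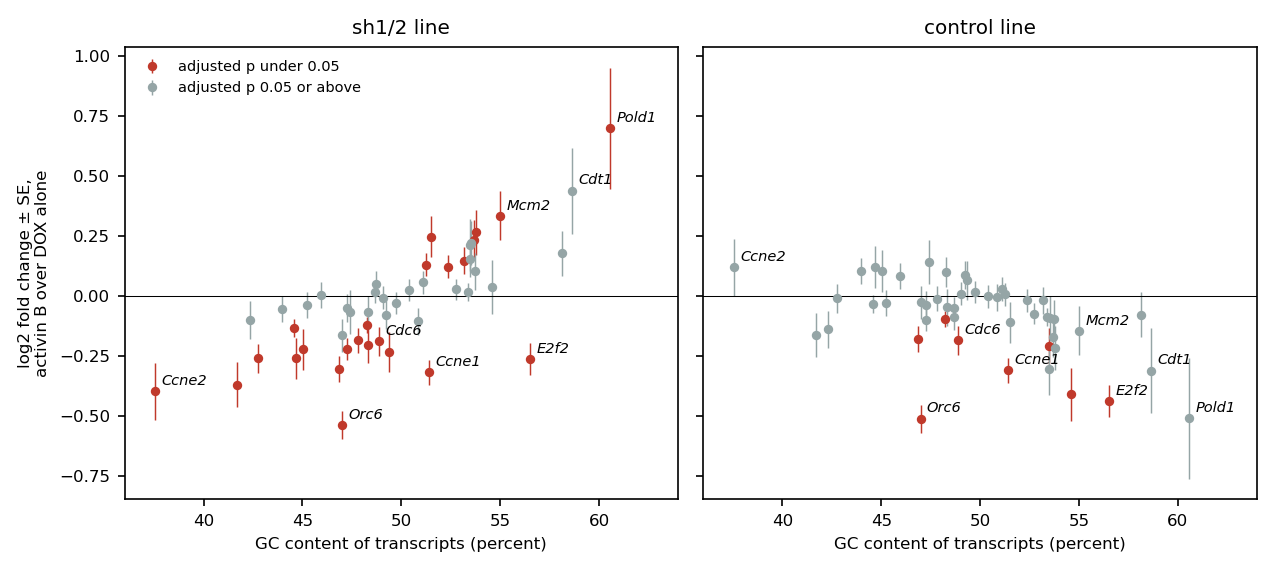
log2 fold change with SE (activin B over DOX alone) of the 49 genes against the GC content of their transcripts, in sh1/2 cells (left) and control cells (right), with genes called in red. In sh1/2 cells the points rise with GC content and in control cells they fall, while Orc6, Ccne1 and E2f2 lie below 0 in both.

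Whether the activin B response differed from that of the control line was tested as an interaction. In ALK7 cells 0 of 49 genes passed in edgeR and in DESeq2, 7 had an unadjusted p under 0.05, and 0.0256% of all genes were called (0.0192% higher and 0.0064% lower). The smallest p belonged to Cdc6 (-0.26 ± 0.08, adjusted p = 0.37), Pole (-0.16 ± 0.07), Mcm10 (-0.14 ± 0.06) and Dtl (-0.19 ± 0.09). In ALK7-DN cells 0 genes passed with either tool, 0 had an unadjusted p under 0.05, and 0% of all genes were called, with Orc6 (0.13 ± 0.08, adjusted p = 1), E2f7 (-0.10 ± 0.07), Prim2 (0.07 ± 0.08) and Chaf1b (0.06 ± 0.06) first by p. In sh2 cells 0 genes passed with either tool, 1 had an unadjusted p under 0.05, and 0.0128% of all genes were called, with E2f8 (0.16 ± 0.08, adjusted p = 1), Gins1 (-0.21 ± 0.13), Pole (0.10 ± 0.07) and Gins3 (-0.12 ± 0.12) first. All 4 tests share the control libraries. The shares of all genes with an unadjusted p under 0.05 were not computed, so the counts at that threshold have no background. Across the 49 genes the response difference and GC content had a Spearman correlation of 0.725 in ALK7 and 0.83 in sh1/2 cells. It was 0.441 in ALK7-DN and 0.165 in sh2 cells. Over all genes tested with a GC value it was 0.541 in ALK7, 0.677 in sh1/2, 0.188 in ALK7-DN and 0.0807 in sh2 cells. In sh1/2 cells 11 genes passed, 22.4% of the 49 against 17.7% of all genes (8.49% higher and 9.22% lower). Those above the control response were Uhrf1 (0.48 ± 0.13, adjusted p = 0.029), Fen1 (0.36 ± 0.10), Ung (0.40 ± 0.12), Pold1 (1.21 ± 0.36), Gins2 (0.52 ± 0.16), Mcm2 (0.48 ± 0.14), Cdt1 (0.75 ± 0.25) and Rfc2 (0.36 ± 0.12), with a median GC content of 53.7%. Those below it were Prim1 (-0.38 ± 0.12), Ccne2 (-0.52 ± 0.17) and Dtl (-0.25 ± 0.09, adjusted p = 0.0471), with a median of 42.7%. None of these was called without sh1/2 DOX replicate 1 or 3, sh1/2 activin B replicate 2 or 3, control DOX replicate 1 or control activin B replicate 2. In place of 11 genes, 1 was called without control DOX replicate 3, 7 without sh1/2 activin B replicate 1, 18 without control activin B replicate 1 and 26 without sh1/2 DOX replicate 2.

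The lines were also compared with the control line in the same treatment and batch. In ALK7 cells with DOX alone 0 of 49 genes passed in edgeR and 1 in DESeq2, where 1.98% of all genes passed in edgeR (1.03% higher and 0.953% lower). The smallest p was that of Mcm10, at 81.91 ± 3.52 CPM in ALK7 cells and 73.56 ± 2.76 CPM in control cells (0.15 ± 0.04, adjusted p = 0.0749), before Cdc6 (0.20 ± 0.06), Rfc3 (0.18 ± 0.05) and Rfc5 (0.14 ± 0.05); without control DOX replicate 2, 1 gene was called. In ALK7-DN cells 0 genes passed with either tool and 0.966% of all genes did in edgeR (0.378% higher and 0.589% lower). First by p were Orc1 (-0.20 ± 0.07, adjusted p = 0.247), E2f7 (0.09 ± 0.05), E2f8 (-0.10 ± 0.05) and Mcm7 (0.08 ± 0.05). An unadjusted p under 0.05 was reached by 14 of the 49 genes in ALK7 cells and by 1 in ALK7-DN cells. The shares of all genes tested that reached it were not computed, so these 2 counts have no background.

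In sh1/2 cells with DOX alone 9 genes were higher and 15 lower than in control cells, where 19.4% and 18.6% of all genes were (38% in either direction). Higher were E2f7, an E2F repressor, at 111.1 ± 2.39 CPM in sh1/2 cells and 78.25 ± 2.24 CPM in control cells (0.51 ± 0.05, adjusted p = 1.19e-08), E2f3 at 41.49 ± 3.65 CPM in sh1/2 cells and 31.47 ± 0.333 CPM in control cells (0.40 ± 0.06) and Rrm2 at 204.9 ± 16.9 CPM in sh1/2 cells and 162.5 ± 4.49 CPM in control cells (0.33 ± 0.05). Further higher genes were Slbp (0.25 ± 0.05), Orc6 (0.27 ± 0.06), Mcm10 (0.14 ± 0.04), Rfc3 (0.17 ± 0.05), E2f2 (0.20 ± 0.07) and Gins4 (0.15 ± 0.06). Lower was Chaf1b, a chromatin assembly subunit, at 182.3 ± 8.77 CPM in sh1/2 cells and 220 ± 2.2 CPM in control cells (-0.27 ± 0.04, adjusted p = 2.79e-05). The other 14 lower genes ranged from Pold1 (-0.70 ± 0.25) to Tyms (-0.11 ± 0.03). The 15 lower genes had a median GC content of 53.5% (range 41.7 to 60.6%), against 49.3% (range 46.0 to 56.5%) in the 9 higher genes. Without sh1/2 DOX replicate 1 or 3, the libraries low in GC-rich genes, 15 and 14 genes were called, and without these and control activin B replicate 2 together 10, a fit that left 1 sh1/2 library with DOX alone, assumed to vary like the other groups. E2f7, E2f3, Rrm2, Chaf1b, Fen1 and Gins2 were called under every alternative run for this comparison.

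In sh2 cells with activin B, the arm in which this line shared a batch with the control, 9 genes were higher and 0 lower, where 3.06% and 6.18% of all genes were (9.23% in either direction). First by p were Mcm10 at 87.16 ± 1.99 CPM in sh2 cells and 74.5 ± 0.92 CPM in control cells (0.23 ± 0.04, adjusted p = 0.00127), Cdc45 at 151.4 ± 3.85 CPM in sh2 cells and 131.8 ± 7.41 CPM in control cells (0.20 ± 0.04, adjusted p = 0.00333), Mcm7 (0.20 ± 0.05) and E2f8 (0.21 ± 0.05). The others were Gins4, E2f3, E2f7, Prim2 and Rfc3, between 0.16 ± 0.05 (E2f7) and 0.21 ± 0.06 (Gins4). All 9 calls ended when only these 6 libraries were fitted. The count was 4 without control activin B replicate 2 or sh2 activin B replicate 3, and 5 without control activin B replicate 3 or sh2 activin B replicate 1 or 2.

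Other genes of the same pathway were counted beside the 49. Of 47 further replication genes 15 fell and 0 rose over the 5 lines (31.9% lower, against 22% of all genes tested). By line, 9 were called lower in ALK7 cells (19.1%, against 12.3% of all genes) and 21 in sh1/2 cells (44.7%, against 19.1%). In ALK7-DN, sh2 and control cells 0 were called lower, where 7.62%, 8.91% and 9.66% of all genes were. Of all genes 13%, 17.5%, 8.48%, 10.7% and 10.7% were called higher in ALK7, sh1/2, ALK7-DN, sh2 and control cells. Of the 47 genes 0, 4, 0, 1 and 2 were, in the same order of lines. The 4 with the smallest p over the lines, each called in ALK7 and sh1/2 cells and in no other line, were Rfc1, the large subunit of the clamp loader (-0.21 ± 0.03, adjusted p = 1.15e-06), Rpa1, which coats single-stranded DNA (-0.10 ± 0.02), the mismatch repair gene Msh6 (-0.13 ± 0.02) and Dut, which clears dUTP (-0.15 ± 0.03). Of 34 tested genes of the RB family, the E2F partners, the DREAM complex and the cyclins and their kinases and inhibitors, 10 fell and 5 rose (29.4% and 14.7%, against 22% and 21.5% of all genes; 44.1% against 43.6% in either direction). Ccnd2, a D cyclin, had the smallest p, at 1.13 ± 0.131 CPM with activin B and 2.62 ± 0.202 CPM with DOX alone in control cells and -1.23 ± 0.10 over the lines (adjusted p = 2.75e-10), and it was called lower in all 5 lines. Mycn rose (1.29 ± 0.13, adjusted p = 5.58e-09), at 2.15 ± 0.236 CPM with activin B and 0.815 ± 0.116 CPM with DOX alone in control cells, and was called in all lines but sh1/2 (0.67 ± 0.28, adjusted p = 0.0676). The E2F dimer partner Tfdp2 fell (-0.32 ± 0.03), as did Cdkn1c, which encodes the CDK inhibitor p57 (-0.45 ± 0.06). Cdkn2b encodes the CDK4/6 inhibitor p15 and was chosen after its values were seen. It rose by 0.30 ± 0.04 over the lines (adjusted p = 5.51e-07) and was called higher in all 5 lines. In control cells it stood at 18.5 ± 1.53 CPM with activin B and 15.4 ± 1.58 CPM with DOX alone. Of the other CDK4/6 inhibitor genes on this list, Cdkn2c fell (-0.12 ± 0.02, adjusted p = 0.000325). Cdkn2a (-0.09 ± 0.10) and Cdkn2d (-0.03 ± 0.03) were not called. Of 46 genes of G2/M and mitosis 7 rose and 7 fell over the lines (15.2% in each direction, against 21.5% higher and 22% lower of all genes). In sh1/2 cells 16 were called lower (34.8%, against 19.1% of all genes) and 5 higher (10.9%, against 17.5%). Called lower in ALK7, ALK7-DN, sh2 and control cells were 0, 0, 0 and 1, where 12.3%, 7.62%, 8.91% and 9.66% of all genes were. Called higher in these lines were 2, 0, 1 and 2, where 13%, 8.48%, 10.7% and 10.7% of all genes were. The 4 of these genes with the smallest p over the lines were higher: the spindle kinesin Kif2c (0.17 ± 0.02, adjusted p = 1.77e-07), the mitotic kinase Aurka (0.13 ± 0.02), the securin gene Pttg1 (0.18 ± 0.04) and the checkpoint kinase gene Bub1b (0.08 ± 0.02). Kif2c was called in ALK7, sh2 and control cells, Pttg1 only in ALK7 and Bub1b only in control cells. Aurka was called in no single line.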

How the data were processed

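Poly(A) RNA was sequenced from 30 libraries, 3 wells in each of 10 groups. The deposited values were raw counts of reads per gene, which per the submitters' processing notes came from bcl2fastq 2.17, cutadapt 1.4.2, HISAT2, featureCounts 1.4.4 and the mm10 build; strand setting and treatment of multiply mapping reads are not given in the sources used here, so overlapping, antisense and near-identical genes are uncertain. All 30 columns were assigned by name and held the same values as the sample files. Replicates differed by more than sampling noise (chi-square per degree of freedom at least 7.63).

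Counts were filtered with filterByExpr, scaled by TMM and fitted in edgeR 4.0.16 (R 4.3.3, limma 3.58.1) with 10 group means and no covariate, and 14 contrasts were tested with the quasi-likelihood test and Benjamini-Hochberg adjustment over 15627 genes at 0.05. CPM and RPKM were computed from these counts, with lengths and GC content from GENCODE M21. Depth limits precision through counting error only for low genes, and no member fell below the filter. Alternatives were DESeq2 1.42.0, RLE scaling, no filter, only the groups compared, a replicate block, removal of the GC trend (span 0.3) with and without the block, leaving out the 3 libraries low in GC-rich genes, the mean of 3 lines, and leaving out each replicate.

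The members and gene lists were chosen with earlier results of these data known. Values in every library are given for the 12 members with the smallest p over the lines. Fold changes are given for the 4 smallest p in each comparison, members called against the majority direction and members called in a response difference. They are also given for the 3 highest and 3 lowest members and the 4 smallest p of each further list. Other members are named where they were called. Cdkn2a, Cdkn2b, Cdkn2c, Cdkn2d and the library values of Mcm2 and Pold1 were added after their values were seen.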

Additional observations from a re-analysis of the deposited data

Results flagged for a closer look

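In 11 genes the activin B response of sh1/2 cells differed from that of control cells by the interaction test of edgeR. Uhrf1 responded by 0.27 in sh1/2 cells and -0.22 in control cells on the log2 scale, a difference of 0.48. Fen1 responded by 0.16 in sh1/2 cells and -0.21 in control cells, a difference of 0.36, and Ung by 0.23 and -0.17 in the same order of lines, a difference of 0.40. Pold1 had the widest difference, 1.21, with 0.70 in sh1/2 cells and -0.51 in control cells. The differences were 0.52 for Gins2, 0.48 for Mcm2, 0.75 for Cdt1 and 0.36 for Rfc2. Responses lower in sh1/2 cells than in control cells were those of Prim1 (a difference of -0.38), Ccne2 (-0.52) and Dtl (-0.25). Across the 49 genes this difference had a Spearman correlation of 0.83 with GC content, and that of ALK7 cells 0.725. Over all genes tested with a GC value, the correlations were 0.677 and 0.541 in the same order. Of the 11 genes, 3 were called with the GC trend removed. Without the 3 libraries low in GC-rich genes 0 were called, in a fit with 1 sh1/2 library with DOX alone, assumed to vary like the other groups.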

How the results depend on the processing

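Of 2166 repeats of 123 gene calls under the alternatives, 1625 kept the call, 530 lost it in the same direction and 11 reversed; 36 calls held under every alternative. Where the cause of a change is not given by fewer samples or genes, the cause was not tested. Over the 5 lines 15 to 18 genes were called when 1 library was left out. The same ranges were 9 to 14 in ALK7, 3 to 5 in ALK7-DN, 5 to 6 in sh2, 6 to 32 in sh1/2 and 5 to 8 in control cells. They were 0 to 26 for the response difference of sh1/2 and 0 for those of the other lines, and against control cells 0 to 1 in ALK7, 0 in ALK7-DN and 14 to 28 in sh1/2 cells with DOX alone and 4 to 6 in sh2 cells with activin B. DESeq2 called 1 gene in ALK7 against control cells with DOX alone, where edgeR called 0. No other count moved by over 1.5 times with DESeq2. Without the filter the counts were 8 in ALK7, 4 in sh2, 15 in sh1/2, 5 in control cells, 3 for the sh1/2 difference and 5 in sh2 against control cells. With only the groups compared, where fewer libraries set the spread, they were 2 in sh1/2, 4 in control cells, 0 for the sh1/2 difference, 6 in sh1/2 against control and 0 in sh2 against control cells; this setting gives nothing new for the mean of the lines, which uses all groups.

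Correlations of the deviations of same-numbered samples were 0.0794 to 0.329, all positive. With a cutoff of 0.1, under which 2 of 15 pairs lay, 1 each in sh2 and control cells, the numbers were not taken to pair the samples. Since all values were positive, this does not exclude a pairing. All 3 pairs were over 0.1 in ALK7, ALK7-DN and sh1/2 cells, where the replicate block gave 16, 7 and 28 calls. In these lines it ended 1 call, that of Mcm10 in ALK7 cells. In sh2 and control cells the block gave 10 and 12 calls. With the replicate block 21 genes were called for the sh1/2 difference and 2 in ALK7 against control cells. With the GC trend removed the counts were 14 in sh2, 14 in sh1/2, 13 in control cells, 3 for the sh1/2 difference, 2 in ALK7 against control and 15 in sh2 against control cells. With this and the replicate block they were 28 over the lines, 12 in ALK7-DN, 19 in sh2, 16 in control cells, 2 for the ALK7 difference, 5 in ALK7 against control and 20 in sh2 against control cells. Without the 3 libraries low in GC-rich genes, which leaves 1 sh1/2 library with DOX alone, they were 3 in sh1/2, 0 for the sh1/2 difference and 10 in sh1/2 against control cells.

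With the GC trend removed, Mcm4 in sh1/2 cells reversed to 0.0554 and the Dtl response difference to 0.0396, and to 0.0561 and 0.041 with the block as well. Without the 3 libraries, Ccne2 (0.0187), Gins3 (0.00319) and Pola2 (-0.0132) reversed in sh1/2 cells, the response differences of Dtl (0.00198) and Ccne2 (0.0505) reversed, and so did Tk1 (0.016) and Pola2 (0.00452) in sh1/2 against control cells. The median log2 fold change of the 49 genes moved with the GC trend removed to -0.07 in sh2, 0.004588 in sh1/2, 0.01 in ALK7 against control and -0.06 in sh1/2 against control cells (-0.07, 0.004696, 0.01 and -0.06 with the block). Without the 3 libraries it was -0.05 in sh1/2 against control and 0.06 in sh2 against control cells, and 0.06 in the second without control activin B replicate 2.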
